A study of Mus musculus with 8 samples.

Results

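The anaphase-promoting complex (APC/C) and its activators were followed in fully grown germinal vesicle (GV) oocytes through 10 mRNAs, chosen by gene symbol: the subunits Anapc1, Anapc2, Anapc4, Anapc5, Anapc7, Anapc10, Anapc11 and Cdc27, and the activators Cdc20 and Fzr1. All 10 were found among the 46078 genes of the count table, and all 10 passed the filter on low values, which kept 19241 genes. The comparison was between 4 RNA-seq libraries from CNOT7&8 KO oocytes and 4 from Zp3-Cre controls, with 100 oocytes in each. In the KO oocytes, floxed alleles of Cnot7 and Cnot8 were deleted by a Cre driven by the oocyte-specific Zp3 promoter, and the control animals carried the same Cre. Both genes encode catalytic subunits of CCR4–NOT, a deadenylase that shortens poly(A) tails. Its other catalytic subunits, Cnot6 and Cnot6l, join the complex through Cnot7 or Cnot8. Donors were females on a C57BL/6J background, 4 weeks old, and GV oocytes were taken 48 h after an injection of PMSG, a gonadotropin that stimulates follicle growth. The labels do not say whether libraries of a group came from different animals, so the p-values measure the spread between these libraries, which may be partly technical.

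The APC/C is a ubiquitin ligase that marks cell cycle proteins for destruction by the proteasome. Its cullin and RING subunits carry out catalysis, large scaffold subunits form a platform, subunits with TPR repeats form an arm that holds the activator, and the activator, Cdc20 or Fzr1 (also called Cdh1), recruits the targets. In oocytes, the Fzr1-bound form keeps cyclin B1 low during prophase arrest, whereas the Cdc20-bound form destroys cyclin B1 and securin so that homologous chromosomes separate, and Emi2 holds the complex inactive at metaphase II.

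Sites of the cytoplasmic polyadenylation element (CPE, UUUUAU in RNA and TTTTAT in the sequences here) were searched on the RNA strand of the 3′UTR of the longest annotated coding transcript (GENCODE vM21, build GRCm38), an element that the study also looked for in 3′UTRs. The element occurred in 7 of the 10 mRNAs, with 19 copies in all, and in 56.4% of the 15056 tested protein-coding genes whose 3′UTR has at least 50 bases. It lay in the last 100 bases in 2 of the 10, Cdc20 and Anapc7, and in 14.5% of those genes. Cdc20 stands out by the length of its 3′UTR, 62 bases against a median of 1151 bases, which holds 2 overlapping copies, the nearer of them 7 bases before the polyadenylation signal AATAAA. The sites shown are the overlapping pair of Cdc20, the only copy of Anapc7, the copy of Anapc10 that lies nearest to an AATAAA and the last of the 6 copies in Cdc27. Capitals mark TTTTAT, and all sequences are written 5′ to 3′ on the RNA strand.
Cdc20 (chr4:118432918-118432947, minus strand): ttcttgtTTTTATTTTATtttttctaataa
Anapc7 (chr5:122443415-122443434, plus strand): tattaaaatacaTTTTATgt
Anapc10 (chr8:79775298-79775327, plus strand): gtcatgtctgttTTTTATataataaagctc
Cdc27 (chr11:104503114-104503143, minus strand): tacttaacaattTTTTATtttacccaagaa
The site of Anapc7 ends 2 bases before the annotated end of the transcript, and that of Anapc10 lies 2 bases before an AATAAA but 3744 bases before the annotated end. That Anapc7 transcript ends at 122443434, whereas the annotated gene extends to 122444912. The Anapc5 transcript searched has a coding sequence of 1224 bases. Other transcripts of each gene were not searched, so the positions and absences hold for the chosen transcript only. Anapc1 and Anapc11 held 1 copy each, Anapc4 held 3, Anapc10 held 5, and Anapc2, Anapc5 and Fzr1 held none. A match describes the annotated sequence only and does not show which 3′ end these oocytes use.

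Total counts ranged from 8639444 to 44092144 a library, and 3 counts, taken as the detection floor, made 0.347 CPM (counts per 1000000 counts of the library) in the shallowest library. This floor covers counting error only, whereas the SE and 95% intervals of fold changes below come from the fit and include the spread between libraries. Both targeted genes were lower in KO with no overlap between the groups, Cnot8 at 20.97% and Cnot7 at 77.1% of the control mean. These are RNA counts, and the study reported by immunoblotting that both proteins were depleted in KO oocytes. All 10 oocyte markers examined were detected in both groups, at a summed 12625 CPM or more in each library, and 5 of them were lower and 2 higher in KO. Together, the 12 markers of granulosa and cumulus cells made 134 to 178 CPM per Zp3-Cre library and 220 to 288 CPM per KO library. Of the 11 tested, 6 were higher in KO (Nr5a2, Kitl, Inha, Fst, Hsd3b1 and Fshr) and 1, Cyp19a1, was lower. By the rule of both marker counts, an adjusted p of at most 0.05, 24.1% of all tested genes were lower and 31.2% higher. The mean of Inha rose from 6.86 to 25.9 CPM and that of Fst from 1.58 to 7.51 CPM. In CNOT7&8 KO replicate 4, Inha and Fst lay within the control range, at 4.77 and 1.53 CPM. Nr5a2 and Kitl lay above it in that library, at 131.8 and 40.1 CPM. Foxl2, which was not tested, had at most 1 count in any library. The part of these cells in the values below was not tested. Because every library is scaled to its own total, less of an mRNA per oocyte and more of all other RNA cannot be told apart. Zp3-Cre replicate 1 and CNOT7&8 KO replicate 4 stood apart from the other libraries of their groups for several of the mRNAs.

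Of the 10 mRNAs, 5 were lower in CNOT7&8 KO oocytes, the activator Cdc20 and the subunits Anapc10, Anapc7, Anapc4 and Anapc2, and 0 were higher (adjusted p of at most 0.05, edgeR's quasi-likelihood test, with p-values adjusted over all tested genes by Benjamini-Hochberg). Over all tested genes, 24.1% were lower and 31.2% higher by this rule. Within the range of mean levels that the 10 mRNAs span, 28.2 to 561 CPM, 46.5% of 5781 genes were lower, close to the share among the 10. The median log2 fold change was -0.45 over the 10 mRNAs, 0.12 over all tested genes and -0.30 over the genes in that range. The further rule of at least a 2-fold change was met by 0 of the 10, and over all tested genes by 6.56% that were lower and 23.8% that were higher, 30.4% in all. Without the 2 libraries that stood apart, 6 were lower, with Anapc11 added to the 5, and 1 was higher, Anapc1. In that fit 26.3% of all tested genes were lower and 31.8% higher. These 2 libraries were named as apart from their values for these mRNAs, Anapc11 and Anapc1 included, so the added calls are not independent support. With all libraries, the same 5 mRNAs were those whose KO and control values did not overlap, which held in the lower direction for 21.4% of tested genes.

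**Figure D1:**
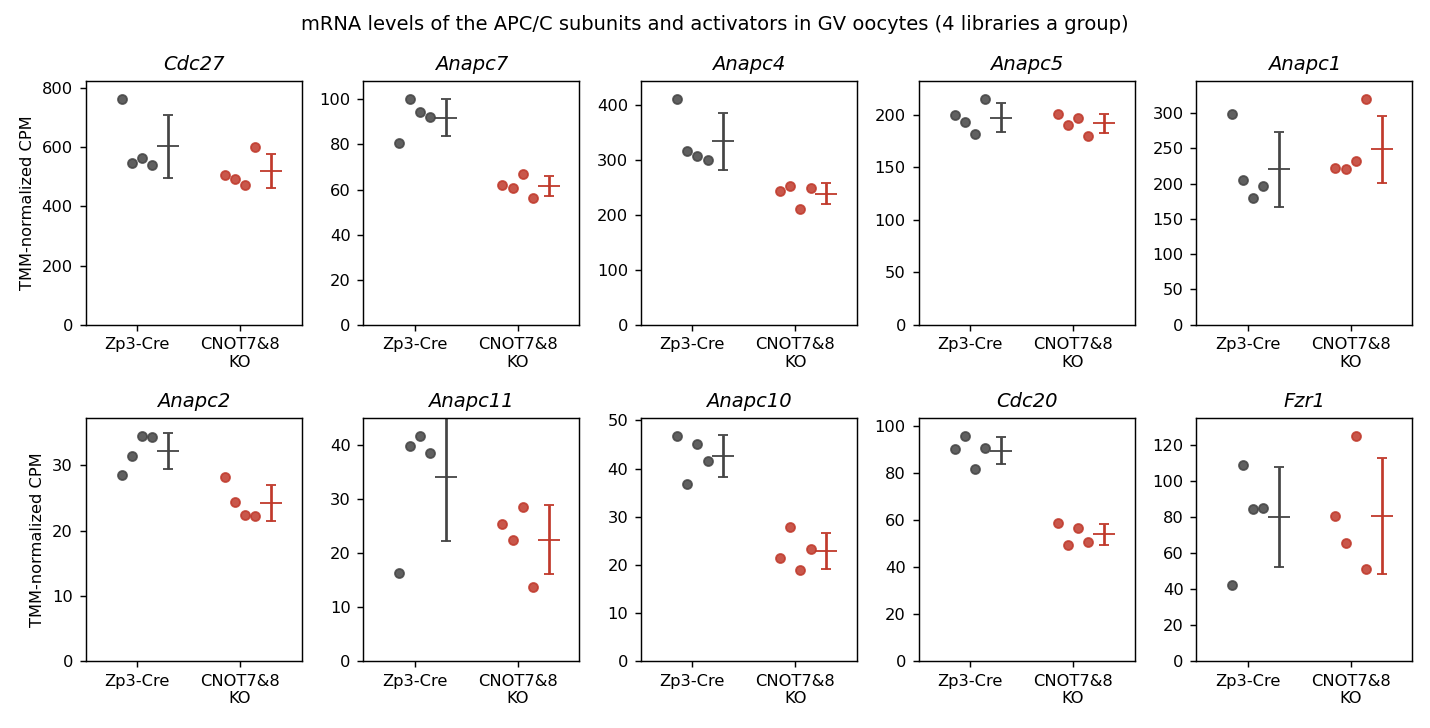
Each panel shows 1 mRNA, with TMM-normalized CPM on a linear axis from 0, a point for each of the 4 Zp3-Cre (grey) and 4 CNOT7&8 KO (red) libraries in replicate order, and the mean with its SD beside them. Values of Cdc20, Anapc10, Anapc7, Anapc4 and Anapc2 do not overlap between the groups, whereas those of the other 5 do.

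Of the activators, Cdc20 was lower in KO oocytes and Fzr1 did not pass the test. Cdc20 (ENSMUSG00000006398, chromosome 4 of GRCm38 from 118432901 to 118437352, minus strand), the activator of anaphase, had 90.3, 95.8, 81.6 and 90.5 TMM-normalized CPM in control replicates 1 to 4 and 58.7, 49.3, 56.7 and 50.9 CPM in KO replicates 1 to 4. The lowest control library was thus above the highest KO library. Its mean fell from 89.6 ± 5.87 (SD, n = 4) to 53.9 ± 4.52 CPM (SD, n = 4), 60.2% of the control level, with log2 fold change -0.73 (standard error, SE, 0.11, 95% interval -0.97 to -0.50, adjusted p = 0.000145, edgeR's quasi-likelihood test). The annotated exons of Cdc20 share 53 bases with Elovl1 on the opposite strand, the library kit keeps strand, and the strand setting of the counting is not given in the sources used here, so part of its reads may belong to that gene. Fzr1 (ENSMUSG00000020235, chromosome 10 from 81366222 to 81378516, minus strand), the activator of prophase arrest, had 42.4, 109, 84.3 and 84.98 CPM in control replicates 1 to 4 and 80.8, 65.7, 125 and 51.1 CPM in KO replicates 1 to 4. The groups overlapped over nearly their whole range, with the lowest library in the control group and the highest in the KO group. The means were 80.2 ± 27.7 and 80.7 ± 31.98 CPM (SD, n = 4 each), with a log2 fold change of 0.0088 and a wide 95% interval of -0.62 to 0.64 (adjusted p = 0.981, same test). Without Zp3-Cre replicate 1 the log2 fold change of Fzr1 was -0.21, and without CNOT7&8 KO replicate 3 it was -0.28, neither past the threshold.

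The ratio of Cdc20 to Fzr1 within a library does not depend on how library sizes are scaled. The log2 ratio of the counts was 1.09, -0.19, -0.046 and 0.091 in control replicates 1 to 4 and -0.46, -0.41, -1.14 and -0.0058 in KO replicates 1 to 4. KO replicate 4 lay within the control range, and control replicate 1 lay far above all other libraries. The mean was 0.24 ± 0.58 in control and -0.51 ± 0.47 in KO libraries (SD, n = 4 each), a difference of -0.74 that did not pass an exact permutation test over the 70 assignments of the libraries (two-sided p = 0.0857, where the smallest possible is 0.0286). It was -0.46 without Zp3-Cre replicate 1. Counts of 2 genes of different length are compared here, so that the ratio describes a change between groups and not their molar proportion.

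**Figure D2:**
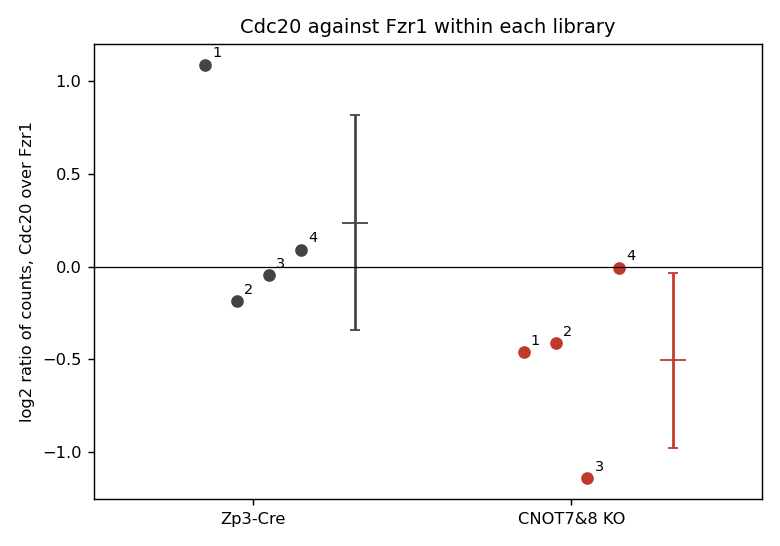
Log2 ratio of Cdc20 to Fzr1 counts on the vertical axis, with a numbered point for each replicate and the mean with its SD for each group of 4 libraries. The means were 0.24 in Zp3-Cre and -0.51 in CNOT7&8 KO libraries, and the groups overlap at KO replicate 4.

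Anapc10 showed the lowest log2 fold change of the 10. Its protein works with the activator as a co-receptor for the destruction box of targets. Anapc10 (ENSMUSG00000036977, chromosome 8 from 79711820 to 79779059, plus strand) had 46.8, 36.9, 45.1 and 41.5 CPM in control replicates 1 to 4 and 21.4, 27.9, 18.9 and 23.3 CPM in KO replicates 1 to 4. Every KO library was below every control library. The mean fell from 42.6 ± 4.39 to 22.9 ± 3.79 CPM (SD, n = 4 each), 53.7% of the control level, a log2 fold change of -0.89 (SE 0.15, 95% interval -1.21 to -0.58, adjusted p = 0.000284, same test). These values rest on 197 to 1752 counts a library. Its processed pseudogene Gm15530, 97.3% identical over 553 bases, had at most 3 counts in any library.

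The catalytic pair was lower in KO oocytes in 1 of its 2 members. Anapc2 (ENSMUSG00000026965, chromosome 2 from 25272478 to 25285915, plus strand), the cullin subunit, had 28.5, 31.3, 34.5 and 34.2 CPM in control replicates 1 to 4 and 28.1, 24.4, 22.3 and 22.2 CPM in KO replicates 1 to 4. The groups were separated only narrowly, by control replicate 1 and KO replicate 1. Its log2 fold change was -0.41 (SE 0.13, adjusted p = 0.0193, same test), which ranged from -0.47 to -0.35 with 1 library left out and then no longer passed the threshold in 5 of the 8 fits, those without control replicate 3 or 4 or KO replicate 2, 3 or 4 (adjusted p from 0.052 to 0.0673, same test). Anapc11 (ENSMUSG00000025135, chromosome 11 from 120598421 to 120608198, plus strand), the RING subunit that meets the ubiquitin-conjugating enzyme, had 16.4, 39.8, 41.6 and 38.5 CPM in control replicates 1 to 4 and 25.3, 22.5, 28.5 and 13.7 CPM in KO replicates 1 to 4. Control replicate 1 fell among the KO libraries, and the other 3 control libraries were above all of them. The log2 fold change of -0.60 (SE 0.29, 95% interval -1.22 to 0.020) did not pass the threshold with all 8 libraries (adjusted p = 0.0917, same test). Without Zp3-Cre replicate 1 it was -0.84 and passed (adjusted p = 0.00361, same test), and without that library and CNOT7&8 KO replicate 4 it was -0.65 and also passed (adjusted p = 0.000475, same test). Zp3-Cre replicate 1 was named as apart partly from its Anapc11 value, so these fits are descriptive.

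The arm of TPR subunits that docks the activator was represented by Cdc27 and Anapc7. Anapc7 (ENSMUSG00000029466, chromosome 5 from 122421693 to 122444912, plus strand) had 80.8, 100.2, 94.5 and 92.3 CPM in control replicates 1 to 4 and 62.2, 60.6, 66.8 and 56.5 CPM in KO replicates 1 to 4. With no overlap between the groups, its mean fell to 66.9% of the control level, a log2 fold change of -0.58 (SE 0.11, 95% interval -0.82 to -0.34, adjusted p = 0.000889, same test). Cdc27 (ENSMUSG00000020687, chromosome 11 from 104502745 to 104550620, minus strand), which binds the tail of the activator, was the most abundant of the 10 mRNAs in CPM, at 763, 547, 565 and 538 in control replicates 1 to 4 and 507, 491, 474 and 602 in KO replicates 1 to 4. KO replicate 4 lay above 3 of the control libraries. The log2 fold change of -0.22 (95% interval -0.51 to 0.069) did not pass the threshold (adjusted p = 0.178, same test).

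Of the platform subunits, which join the arm to the catalytic core, Anapc4 was lower and neither Anapc1 nor Anapc5 passed the test. Anapc4 (ENSMUSG00000029176, chromosome 5 from 52834012 to 52867797, plus strand) had 411, 317, 308 and 301 CPM in control replicates 1 to 4 and 243, 253, 211 and 249 CPM in KO replicates 1 to 4, a log2 fold change of -0.49 (SE 0.12, 95% interval -0.75 to -0.22, adjusted p = 0.00496, same test). The groups were well separated, and control replicate 1 was far above the other control libraries. Anapc5 (ENSMUSG00000029472, chromosome 5 from 122787459 to 122821339, minus strand) had 199.9, 193, 182 and 215 CPM in control replicates 1 to 4 and 200.5, 191, 198 and 179.6 CPM in KO replicates 1 to 4, which overlapped, with a log2 fold change of -0.039 (95% interval -0.25 to 0.17, adjusted p = 0.750, same test). Anapc1 (ENSMUSG00000014355, chromosome 2 from 128610104 to 128687391, minus strand), the largest subunit, had 298, 206, 180 and 196 CPM in control replicates 1 to 4 and 222, 220.1, 232 and 320 CPM in KO replicates 1 to 4. The highest library of each group was the one that stood apart. Its log2 fold change was 0.17 (95% interval -0.20 to 0.55, adjusted p = 0.407, same test). Without Zp3-Cre replicate 1 it was 0.36 and passed the threshold (adjusted p = 0.0345, same test), and without both libraries that stood apart it was 0.21 and passed as well (adjusted p = 0.0371, same test). Both libraries were named as apart partly from their Anapc1 values, so these fits are descriptive.

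Anapc5 has a set of near-identical copies in the genome that could take or give reads. Among them, the annotated long noncoding RNA Gm10482 (ENSMUSG00000073226) matched the Anapc5 transcript over 1040 bases at 93.9% identity, and it was the only such copy of Anapc5 with more than 3 counts in any library. Gm10482 had 11.4, 7.499, 9.86 and 10.9 CPM in control replicates 1 to 4 and 42.1, 48.7, 48.8 and 54.2 CPM in KO replicates 1 to 4. All 4 KO libraries were far above the control range, with a log2 fold change of 2.29 (SE 0.16, adjusted p = 5.07e-07, same test). How many reads the 2 genes exchanged was not tested, and Gm10482 was named after its values were seen.

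**Figure D3:**
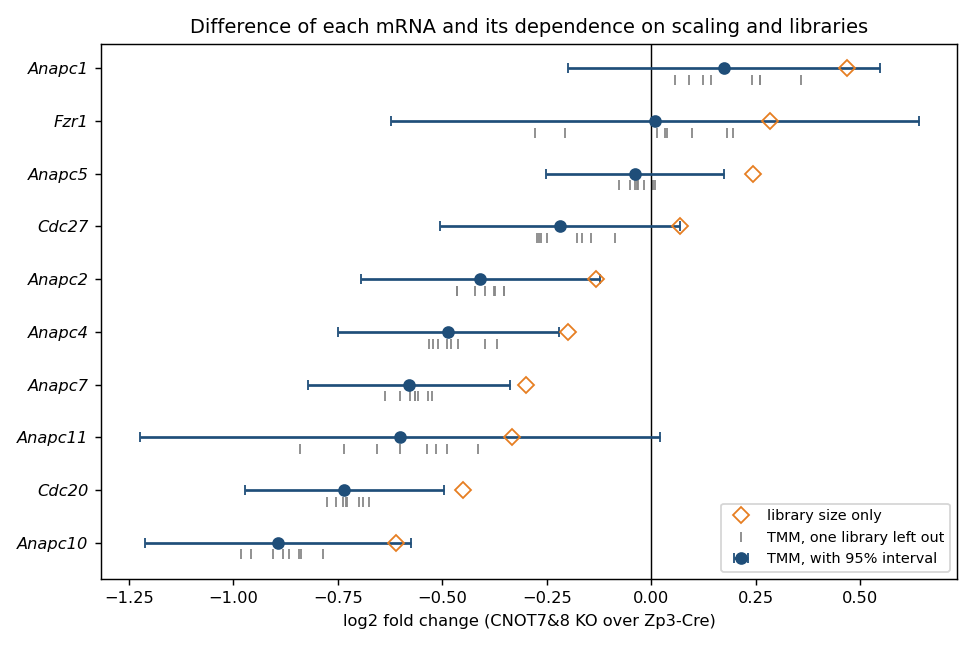
Log2 fold change of each mRNA (horizontal axis, CNOT7&8 KO over Zp3-Cre), with its 95% interval under TMM scaling (blue), the value with library size only (orange diamonds) and the 8 values with 1 library left out (grey ticks). Each diamond lies to the right of the 8 ticks of the same mRNA, and the ticks and diamonds of Cdc20, Anapc10, Anapc7, Anapc4, Anapc2 and Anapc11 all lie below 0.

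The direction and the calls depended on scaling. Scaling by library size alone raised the median log2 fold change over all genes by 0.29, and the order of the 10 mRNAs was the same as under TMM. Cdc20 (-0.45) and Anapc10 (-0.61) remained lower past the threshold, Anapc2, Anapc4 and Anapc7 were no longer past it, and Anapc1 (0.47) and Anapc5 (0.24) were higher past it, while 13.6% of all tested genes were lower and 40.2% higher under this scaling. TMM computed on the genes above a mean of 10 CPM raised that median by 0.25 and gave 4 lower mRNAs and 1 higher, Anapc1 (0.44). Under it, 14.9% of all tested genes were lower and 39.4% higher. Across all 18 alternatives, Cdc20 and Anapc10 were past the threshold and lower in 18, Anapc4 and Anapc7 in 17, and Anapc2 in 9. Neither Cdc27 nor Fzr1 passed it in any.

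Levels of different mRNAs were compared per kilobase of annotated exon. In control libraries, Cdc27 was highest at 96.6 ± 17.1 CPM per kb (SD, n = 4), followed by Anapc4 at 55.0 ± 8.51, Cdc20 at 47.9 ± 3.14, Anapc5 at 32.3 ± 2.30, Anapc7 at 17.96 ± 1.59, Fzr1 at 17.9 ± 6.17, Anapc1 at 13.2 ± 3.19, Anapc2 at 9.33 ± 0.812, Anapc10 at 8.80 ± 0.907 and Anapc11 at 6.74 ± 2.35 CPM per kb. Cdc27 was above Anapc4, Cdc20 above Anapc5, Anapc5 above Anapc7 and Anapc1 above Anapc2 with no overlap of the control libraries, whereas the remaining neighbours in this order overlapped. In KO libraries, Cdc20, at 28.9 ± 2.42 CPM per kb, ranked 4 after Anapc5, at 31.4 ± 1.52 CPM per kb, and Anapc7 moved from rank 5 to rank 7, after Fzr1 and Anapc1. The KO libraries of Cdc20 and Anapc5 overlapped, as did those of Anapc7 and Fzr1, while those of Anapc7 and Anapc1 did not, by a narrow margin. Exons of all annotated transcripts were merged for these lengths, so that an mRNA whose main form is short, or whose gene has many unused exons, is understated.

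Zp3-Cre replicate 1 and CNOT7&8 KO replicate 4 both deviated upwards in Anapc1 and Cdc27 and downwards in Anapc11 and Fzr1. Against the mean of the other 3 control libraries, control replicate 1 was at a log2 ratio of 0.62 for Anapc1, 0.47 for Cdc27 and 0.41 for Anapc4, but at -1.29 for Anapc11 and -1.13 for Fzr1. Against the other 3 KO libraries, KO replicate 4 was at 0.51 for Anapc1, 0.29 for Cdc27 and only 0.078 for Anapc4, and at -0.90 for Anapc11 and -0.83 for Fzr1. Anapc1, Cdc27 and Anapc4 have longest transcripts of 8942, 5425 and 3854 bases with a GC content of 46.9%, 39.9% and 44.5%, while those of Anapc11 and Fzr1 have 3229 and 3057 bases with 52.9% and 59.9% GC. Across the 10 mRNAs, Spearman's rho between the deviation and transcript length was 0.745 in each of the 2 libraries, and with GC content it was -0.648 in control replicate 1 and -0.661 in KO replicate 4. These 10 points share the 2 libraries, and length and GC content are themselves related, so the values are descriptive. Cdc20 hardly deviated in either library, at 0.015 and -0.11.

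**Figure D4:**
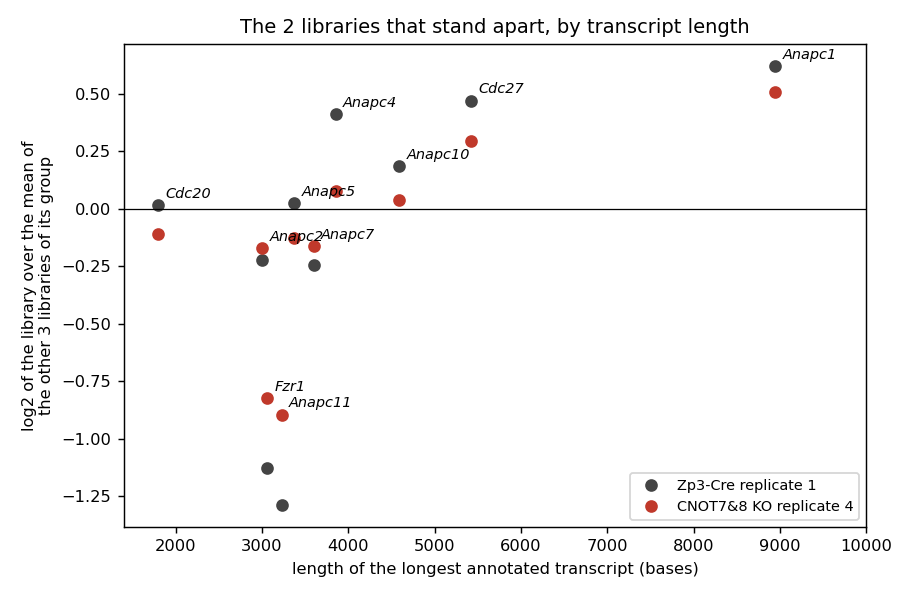
Log2 ratio of Zp3-Cre replicate 1 (grey) and CNOT7&8 KO replicate 4 (red) to the mean of the other 3 libraries of its group (vertical axis), against the length of the longest annotated transcript in bases (horizontal axis), for the 10 mRNAs. Both libraries are high for Anapc1 and Cdc27 and low for Anapc11 and Fzr1.

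The other genes of the pathway were taken from lists of their roles. Their counts are to be read against the 46.5% lower and 16.5% higher, with a median of -0.30, among genes within the range of levels of the 10 mRNAs, and 24.1% and 31.2% among all tested genes. Genes below or above that range, such as Ube2d1, Usp44, Trip13 and Bub1b, are not matched to it in level. Of the 6 remaining subunits, 3 were lower and 0 higher, with a median log2 fold change of -0.42. The share lower was near that of genes in that range, although Anapc13 and Cdc23 lie below it. The largest decrease was that of Anapc16, a small accessory subunit, from 129 ± 6.91 to 61.8 ± 10.6 CPM (SD, n = 4 each, log2 fold change -1.07, adjusted p = 3.4e-05, same test), a little past 2-fold with TMM but at -0.79 with library size only. The TPR subunits Cdc16 and Cdc23 had log2 fold changes of -0.51 and -0.80, and Cdc16 was not past the threshold with library size only. Anapc13 (-0.33), Anapc15 (-0.20) and Cdc26 (-0.090) did not pass the test. All 3 ubiquitin-conjugating enzymes that work with the complex were lower, Ube2c, which starts ubiquitin chains, by 0.58, Ube2s, which extends them, by 0.42, and Ube2d1 by 0.98 on the log2 scale. Ube2s was no longer past the threshold with library size only.

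Of 11 inhibitors and regulators, 6 were lower and 3 higher, where 46.5% and 16.5% of genes at the levels of the 10 mRNAs were. Fbxo43, which encodes Emi2, the inhibitor that arrests the complex at metaphase II, had 311, 258, 267 and 245 CPM in control replicates 1 to 4 and 175, 176, 165 and 182 CPM in KO replicates 1 to 4. All KO libraries were below all control libraries, with a log2 fold change of -0.63 (SE 0.10, adjusted p = 0.000311, same test), and it remained lower with library size only (-0.35). Its relative Fbxo5, which encodes Emi1, an inhibitor of the Fzr1-bound form, did not pass the test at 139 ± 11.1 and 157 ± 9.70 CPM (SD, n = 4 each, log2 fold change 0.18, adjusted p = 0.161, same test), but was higher past the threshold with library size only (0.46). The checkpoint genes Mad2l1 (-0.99), Bub1b (-0.49) and Bub3 (-0.46), whose products form the complex that captures Cdc20, were lower, and with library size only Mad2l1 alone among them remained past the threshold (-0.71). The study measured Bub1b mRNA in these oocytes by RT-qPCR against spike-in RNA and not the library total. It reported no significant difference of that mRNA, and more of the Bub1b protein in KO. For Fbxo43, the study reported Emi2 protein and longer poly(A) tails at metaphase I in KO oocytes, and a shift of the mRNA to heavier polysomes. The amount of Fbxo43 mRNA was reported as unchanged between the GV-stage control and metaphase I. That comparison differs from the one here, which sets GV oocytes of the 2 genotypes side by side. Mad2l2, which encodes a relative of Mad2l1, fell by 1.21 on the log2 scale. The 3 that rose were Usp44, a deubiquitinase, from 0.668 to 2.04 CPM (log2 fold change 1.68), and Trip13 (0.76) and Mad2l1bp (0.64), which dismantle the checkpoint complex and are named here after their values were seen.

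The list of targets of the complex held 27 genes, among them Espl1, which is included here although its protein is the partner of a target. Of the list, 26 were tested, with 16 lower and 0 higher and a median log2 fold change of -0.46. Among genes at the levels of the 10 mRNAs, 46.5% were lower and 16.5% higher, with a median of -0.30. The larger decreases were those of Gmnn, a replication licensing inhibitor (-1.36), Ccnb3, a meiotic cyclin (-1.12), Plk1, a mitotic kinase (-0.93), the Aurora kinases Aurkb (-0.79) and Aurka (-0.76), and Cdc6, a licensing factor (-0.75). All 6 were also lower past the threshold when scaled by library size alone, while Plk1 was the one of them whose groups overlapped. Pttg1, which encodes securin, fell by 0.49, with 741, 598, 674 and 651 CPM in control replicates 1 to 4 and 469, 489.6, 456 and 483 CPM in KO replicates 1 to 4, but missed the threshold (adjusted p = 0.0509, same test) when scaled by library size alone. Espl1, which encodes separase, the protease that securin holds, did not pass the test (-0.21), and Ccnb1, the cyclin whose loss ends metaphase, had a log2 fold change of -0.050 (adjusted p = 0.722, same test) that turned to 0.24 with library size only.

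**Figure D5:**
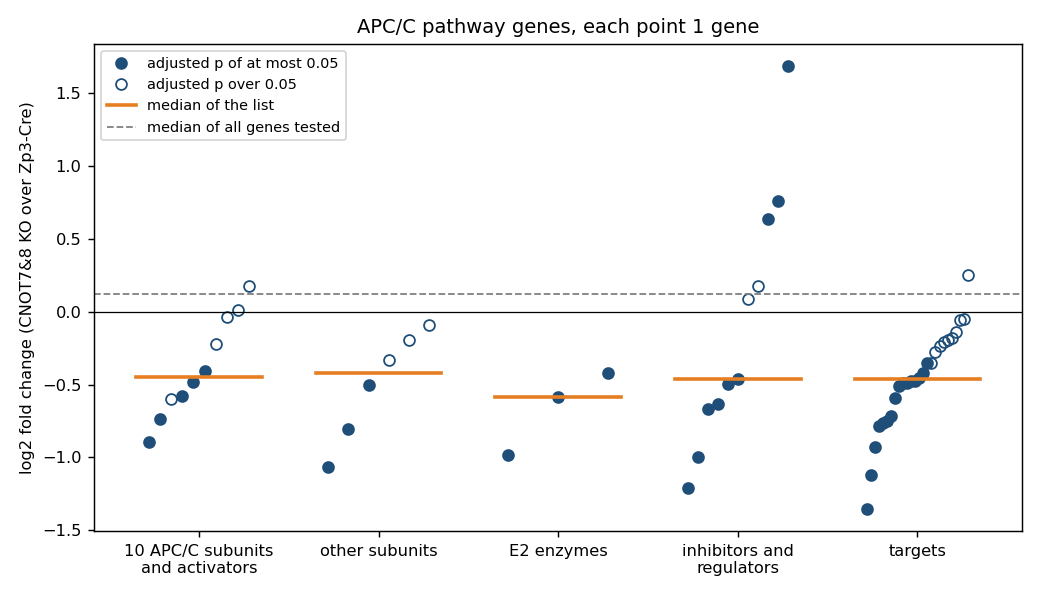
Log2 fold change (CNOT7&8 KO over Zp3-Cre, TMM scaling) of each tested gene in the 5 groups of APC/C genes, with filled points for an adjusted p of at most 0.05, an orange line for the median of each list and a dashed line for the median of all tested genes, 0.12. The medians lie between -0.58 and -0.42.

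Across the 46 tested genes of these 4 lists, 28 were lower and 3 higher. By the same rule, 24.1% and 31.2% of all tested genes were, and 46.5% and 16.5% of genes at the levels of the 10 mRNAs. Scaling by library size alone gave 16 lower and 6 higher (13.6% and 40.2% of all tested genes). TMM on genes of at least 10 CPM gave 18 and 7 (14.9% and 39.4%). Leaving out both libraries that stood apart gave 30 and 4 (26.3% and 31.8%).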

How the data were processed

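Total RNA was depleted of ribosomal RNA, made into stranded libraries with 11 PCR cycles and sequenced as pairs of 150-bp reads. The authors mapped the reads to GRCm38 with STAR 2.6.1d and deposited counts per gene that were not normalized. The counting tool, annotation and strand setting are not given in the sources used here. Table columns were assigned by the genotype and number in their names.

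The analysis used edgeR 4.0.16 and limma 3.58.1 under R 4.3.3. Genes with at least 0.2 CPM in 2 libraries, the filter of the study, were scaled by TMM and tested with edgeR's quasi-likelihood test. The study used edgeR's exact test, kept here as an alternative beside DESeq2 1.42.0, other scalings and filters, a replicate block and leaving out libraries. "Lower" and "higher" mean an adjusted p of at most 0.05. On simulated data of 19241 genes with 200 changed 4-fold, the quasi-likelihood test recovered 198, with 7 false calls. Gene models came from GENCODE vM21, copies from blastn 2.17.0 (at least 90% identity over 150 bases), and figures from Python 3.11.15 with matplotlib 3.10.9.

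The 10 genes and the lists were chosen with earlier results of these data known. Named genes were the 10, every other subunit and E2 enzyme, Fbxo5, Fbxo43, Mad2l1, Bub1b and Bub3, regulators past 2-fold, Ccnb1, Pttg1, Espl1 and the 6 targets with the largest change past the threshold at a mean of at least 1 CPM.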

Additional observations from a re-analysis of the deposited data

Results flagged for a closer look

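In 4 of 20 groups of 4 libraries, the gap of 1 library to its nearest neighbour exceeded Dixon's 95% critical value, which chance gives in about 5% of groups. The flagged values were Anapc4 in Zp3-Cre replicate 1, at 411 CPM (301 to 317 in the other control libraries), Anapc11 in the same library, at 16.4 CPM (38.5 to 41.6), Cdc27 in the same library, at 763 CPM (538 to 565), and Anapc1 in CNOT7&8 KO replicate 4, at 320 CPM (220.1 to 232 in the other KO libraries).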

How the results depend on the processing

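The count of 5 lower mRNAs was 2 with library size only, where 13.6% of all tested genes were lower. It lay between 4 and 6 with 1 library left out, where 21.5% to 25.3% were. The count of higher mRNAs, 0 in the fit reported, was 2 with library size only and 1 with TMM on genes of at least 10 CPM. Of all tested genes, 40.2% and 39.4% were higher in these fits. That count was 1 without both Zp3-Cre replicate 1 and CNOT7&8 KO replicate 4 (31.8% of all tested genes). With 1 library left out it was 0 to 1, where the 1 came without Zp3-Cre replicate 1 (32.3%). Of the other pathway genes, 16 were lower with library size only and 18 with TMM on genes of at least 10 CPM. The shares of all tested genes were 13.6% and 14.9%. With library size only, that TMM, upper quartile scaling and a filter of 1 CPM in 4 libraries, 6, 7, 5 and 5 were higher. The shares of all tested genes that were higher were 40.2%, 39.4%, 34.1% and 32.6%. The cause was not tested beyond the construction of each setting. Anapc5 turned positive with library size only (0.24), that TMM (0.21), upper quartile scaling (0.058) and the stricter filter (0.030), and ranged from -0.077 to 0.0088 with 1 library left out. Cdc27 turned positive with library size only (0.069) and that TMM (0.040). Fzr1 ranged from -0.28 to 0.19 with 1 library left out and was -0.035 without both libraries. The log2 ratio of Cdc20 to Fzr1 differed by -0.91 to -0.46 with 1 library left out and by -0.62 without both. 0 of the 10 mRNAs met the 2-fold rule in any alternative. Of the 180 fits of single mRNAs under alternatives, 152 kept direction and side of the threshold.

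The labels do not say whether shared replicate numbers pair the libraries, and the values showed no clear pairing. Deviations of same-numbered libraries from their group means correlated at -0.072, -0.042, 0.11 and -0.12, whereas control replicate 1 correlated best with KO replicate 4 (0.37). With the replicate block, 4 of the 10 mRNAs and 27 of the other pathway genes were lower and 3 of the latter higher, with Anapc2 (-0.41, adjusted p = 0.062, edgeR's quasi-likelihood test) no longer past the threshold. In that fit 21.8% of all tested genes were lower and 28.6% higher. Over the 16 sign flips of the 4 pairs, the exact p of the Cdc20 to Fzr1 ratio was 0.125 (two-sided), the smallest that this number of flips can give, with the ratio lower in KO in all 4 pairs. The shallowest library, CNOT7&8 KO replicate 1, limits the precision of low values.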
